A study of Mus musculus with 62 samples.

Results

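Class 4 and class 1 are cell populations that the labels call primary monocytes, sorted by flow cytometry from mouse bone marrow, and the comparison described here sets the 2 class 4 libraries against the 2 class 1 libraries, 4 of the 62 RNA sequencing libraries of the series. They were chosen by the class named in the sample title. The other libraries came from progenitor and monocytic cultures of 24 immortalised ER-Hoxb8 clones, from 2 further sorted classes (class 2 and class 3, 2 libraries each) and from classical, intermediate and nonclassical monocytes (2 libraries each). For both groups the labels give total RNA of primary monocytes and nothing but the class that sets them apart. They give no gate, no definition of a class, no strain, age or sex, and they do not say whether the replicates of a class came from separate animals, so a p-value here reflects the spread among the sequenced libraries alone, and that spread may be technical.

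Monocytes are phagocytes that arise in the marrow from granulocyte-monocyte progenitors and depend on the receptor for colony-stimulating factor 1. Classical mouse monocytes carry Ly6C and the chemokine receptor CCR2, which lets them leave the marrow, and nonclassical monocytes carry the fractalkine receptor CX3CR1 and need the nuclear receptor Nr4a1. Neutrophils come from the same progenitors and fill primary granules with enzymes such as myeloperoxidase before they make the proteins of later granules, among them lactoferrin and cathelicidin.

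Total counts were 28.4 and 27 M reads in class 4 and 27 and 27.7 M in class 1, and the other class libraries held 23.1 to 35 M. The class 4 libraries stood apart from the rest. On the leading principal component of the 8 class libraries, which took 43% of the variance, they lay at -127.7 and -139.2, against 21.8 to 80.2 for the 6 others. They also differed more between themselves: 681 of 8697 genes (7.83%) were at least 2-fold apart between the class 4 replicates, against 109 of 8529 (1.28%) between those of class 1. CPM are counts divided by the library size in M reads, after that size was scaled by TMM factors. For class 4 the markers went against the monocyte label. A neutrophil list summed to 49066 and 68777 CPM in the 2 class 4 libraries, above the 23172 and 24022 CPM of the classical monocyte list. Class 4 is therefore named here by its label alone. In class 1 the classical list stood at 62063 and 56927 CPM and the neutrophil list at 1792 and 2477 CPM. Single genes carried much of these sums. In the classical list Lyz2 had 13510 and 13546 CPM in class 4 and 44680 and 41311 CPM in class 1. In the neutrophil list Ngp had 16803 and 22558 CPM in class 4. The sums do not measure shares of cells. Of the cell type markers checked, every classical and nonclassical monocyte marker had counts in at least 1 class 4 library, as did markers of neutrophils, red cell precursors, basophils and B cells. Hoxa10 (progenitors), Gp6 (platelets), Tpsb2 and Mcpt4 (mast cells), and Col3a1 and Pdgfra (stroma) were at 0 in both class 4 libraries.

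Of 13686 genes tested, 1394 (10.2%) were higher and 2048 (15%) lower in class 4 than in class 1 at a Benjamini-Hochberg adjusted p under 0.05 (edgeR quasi-likelihood test, 2-sided). The changes were large as well as many, with 909 of the higher and 1294 of the lower genes at least 2-fold apart, and 346 and 323 at least 8-fold. Among genes whose log2 CPM averaged 3 or more, with no overlap between the classes (62.1% of all genes tested had none), the 12 with the largest rise are best known from granulocytes and red cell precursors: granule and calcium-binding genes of neutrophils (Retnlg, Ngp, S100a8, S100a9, Camp, Ltf, Chi3l1 and Itgb2l), proteins of basophils and eosinophils (Prss34, Prg2 and Mcpt8), and carbonic anhydrase 1 of red cell precursors (Car1). The 12 that fell most under the same rule included lysozyme 1 (Lyz1), the surface receptors of myeloid cells Slamf8 and Sirpb1a, the angiotensin-converting enzyme gene Ace, guanylate-binding protein 2 (Gbp2) and the heat shock genes Hspa1a and Hspa1b. Igj, Ly6i, Skint3 and Tppp3 were also among them. The number of calls fell with either class 1 library left out and rose with either class 4 library left out. Counts of list members given for those fits are to be read beside these shifts over all genes. With total counts 2278 of 13686 genes were higher and 1485 lower. With all 14 primary libraries 569 of 15149 were higher and 1153 lower. All 4 classes share 1 estimate of spread for each gene. The share of genes at least 2-fold apart between replicates was 7.83% in class 4, against 1.28%, 1.1% and 1.01% in class 1, class 2 and class 3. The shared estimate may therefore be too small for class 4 and its p-values too low, which was not tested. The balance of directions rests on the scaling, since the higher genes made up 40.5% of the calls with TMM factors and 60.5% with total counts alone, where the median of all genes moved up by 0.23 on the log2 scale.

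**Figure D1:**
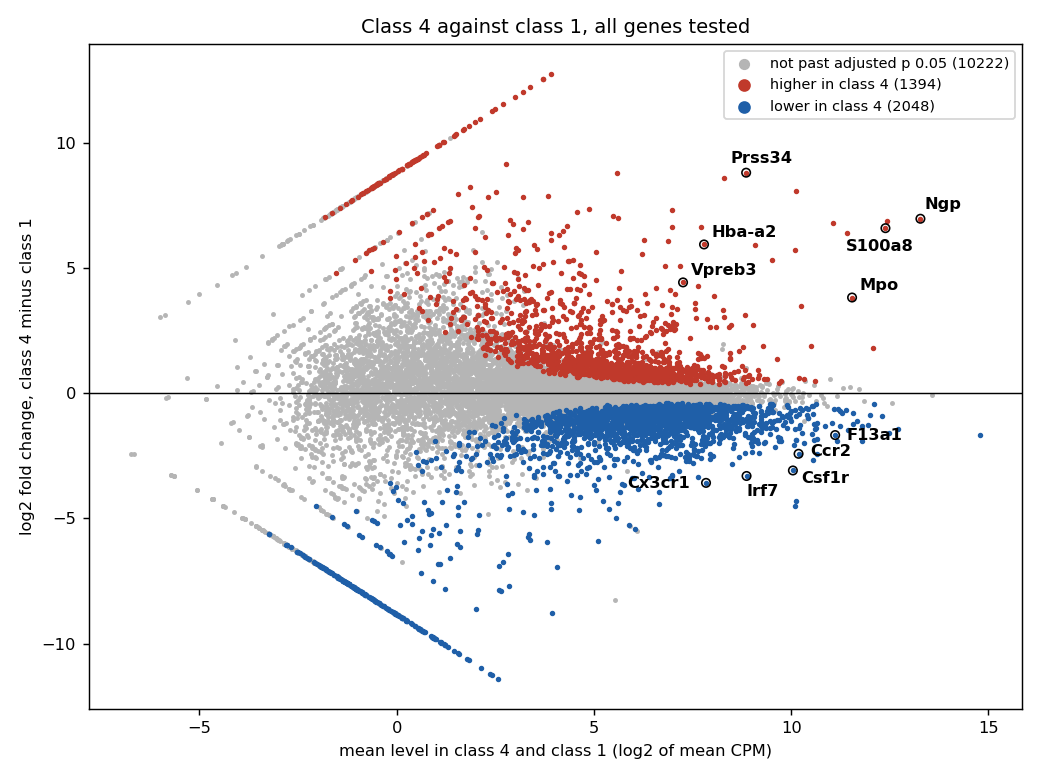
Log2 fold change of class 4 minus class 1 (vertical) against the log2 of the mean CPM of the 4 libraries (horizontal) for the genes tested, less 22 with no count in either class. Red points are the 1394 genes higher and blue points the 2048 genes lower in class 4, the straight slanting edges are genes with a count of 0 in one class, and circles mark 11 genes described in the text.

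Neutrophil genes had the highest summed level in class 4 of the 37 gene lists summed, and most of them were higher in class 4. Of 27 tested members of a neutrophil list, 22 were higher in class 4 and 0 lower, with a median log2 fold change of 6.11, against 0.02 for all genes and the 10.2% of all genes that were higher. Their summed level was 49066 and 68777 CPM (TMM-scaled) in class 4 and 1792 and 2477 CPM in class 1. The members with the highest levels were alarmins and late granule proteins. In bulk RNA, fewer cells of a type and less RNA per cell cannot be told apart.

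S100a8, one chain of the calcium-binding alarmin calprotectin, had 8351 and 12893 CPM in class 4, against 73.7 and 148 CPM in class 1 (log2 fold change 6.59 ± 0.49 SE, adjusted p = 0.000222). Its partner chain S100a9 had 8825 and 13144 CPM in class 4, against 58.3 and 129 CPM in class 1 (log2 fold change 6.87 ± 0.66, adjusted p = 0.000498). Ngp, a neutrophil granule protein of the cystatin family, had 16803 and 22558 CPM in class 4, against 46.5 and 269 CPM in class 1 (log2 fold change 6.96 ± 0.93, adjusted p = 0.00181). For all 3 genes the class 4 libraries lay far above the class 1 libraries, and replicate 2 was the higher one in both classes. The later granules were represented by Ltf (lactoferrin), with 5019 and 5714 CPM in class 4, against 10.2 and 117 CPM in class 1 (log2 fold change 6.40 ± 1.15, adjusted p = 0.00604), and by Camp, the cathelicidin precursor, with 3319.8 and 5139.5 CPM in class 4, against 6.41 and 69.7 CPM in class 1 (log2 fold change 6.80 ± 1.08, adjusted p = 0.00378). Class 1 replicate 1 was far below class 1 replicate 2 for both. Lcn2, which binds iron-carrying siderophores, had 1216 and 1616 CPM in class 4, against 28.7 and 42.9 CPM in class 1 (log2 fold change 5.31 ± 0.29, adjusted p = 0.000145). Retnlg, a resistin-like secreted protein of granulocytes, had 1630.2 and 2812 CPM in class 4, against 11.7 and 4.91 CPM in class 1 (log2 fold change 8.06 ± 0.99, adjusted p = 0.00125). Of the genes for surface molecules, Cxcr2, the receptor that draws neutrophils to chemokines, had 114 and 77.6 CPM in class 4, against 0.438 and 0 CPM in class 1, and Il1r2, the decoy receptor for interleukin 1, had 78.9 and 70.3 CPM in class 4, against 4.5 and 7.17 CPM in class 1 (log2 fold change 3.67 ± 0.36, adjusted p = 0.000504). Both groups were separate for each of these genes.

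Not every member of the list followed. Csf3r, the receptor for granulocyte colony-stimulating factor, had 233 and 281 CPM in class 4, against 253 and 263 CPM in class 1, and the groups overlapped. Cd177, a neutrophil surface protein, had 707 and 791 CPM in class 4, against 415 and 379.8 CPM in class 1, and passed narrowly (log2 fold change 0.91 ± 0.21, adjusted p = 0.0172), a call that was lost with either class 1 library left out. Olfm4, Stfa2l1 and Stfa1, further neutrophil genes, had no count in either class 1 library. Against a floor of 3 counts over the class, Olfm4 was at least 454-fold higher, Stfa2l1 at least 319-fold and Stfa1 at least 97-fold. The Stfa genes are near-identical copies, so their separate counts are uncertain, and the call of Stfa1 was lost with either class 1 library left out.

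The primary granule genes were higher too, from a measurable class 1 level. In that list 11 of 13 tested members were higher (84.6%, beside 10.2% of all genes) and 0 lower, with a median of 2.92. Mpo, myeloperoxidase, had 5349.8 and 5799.7 CPM in class 4, against 302 and 489 CPM in class 1 (log2 fold change 3.82 ± 0.29, adjusted p = 0.000222). Ms4a3, a marker of granulocyte-monocyte progenitors, had 226 and 272 CPM in class 4, against 12.1 and 20.4 CPM in class 1 (log2 fold change 3.94 ± 0.30, adjusted p = 0.000222). Serpinb1a, an inhibitor of neutrophil serine proteases, had 525 and 661 CPM in class 4, against 86.1 and 105 CPM in class 1 (log2 fold change 2.63 ± 0.19, adjusted p = 0.000222). None of these overlapped between the classes. Cebpe and Gfi1, transcription factors that granulocyte development needs, moved with them. Cebpe had 60.3 and 117 CPM in class 4, against 6.57 and 6.91 CPM in class 1 (log2 fold change 3.72 ± 0.33, adjusted p = 0.000375). Gfi1 had 23.1 and 62.6 CPM in class 4, against 1.04 and 2.49 CPM in class 1 (log2 fold change 4.60 ± 0.63, adjusted p = 0.00201), and its class 4 replicates were the further apart.

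**Figure D2:**
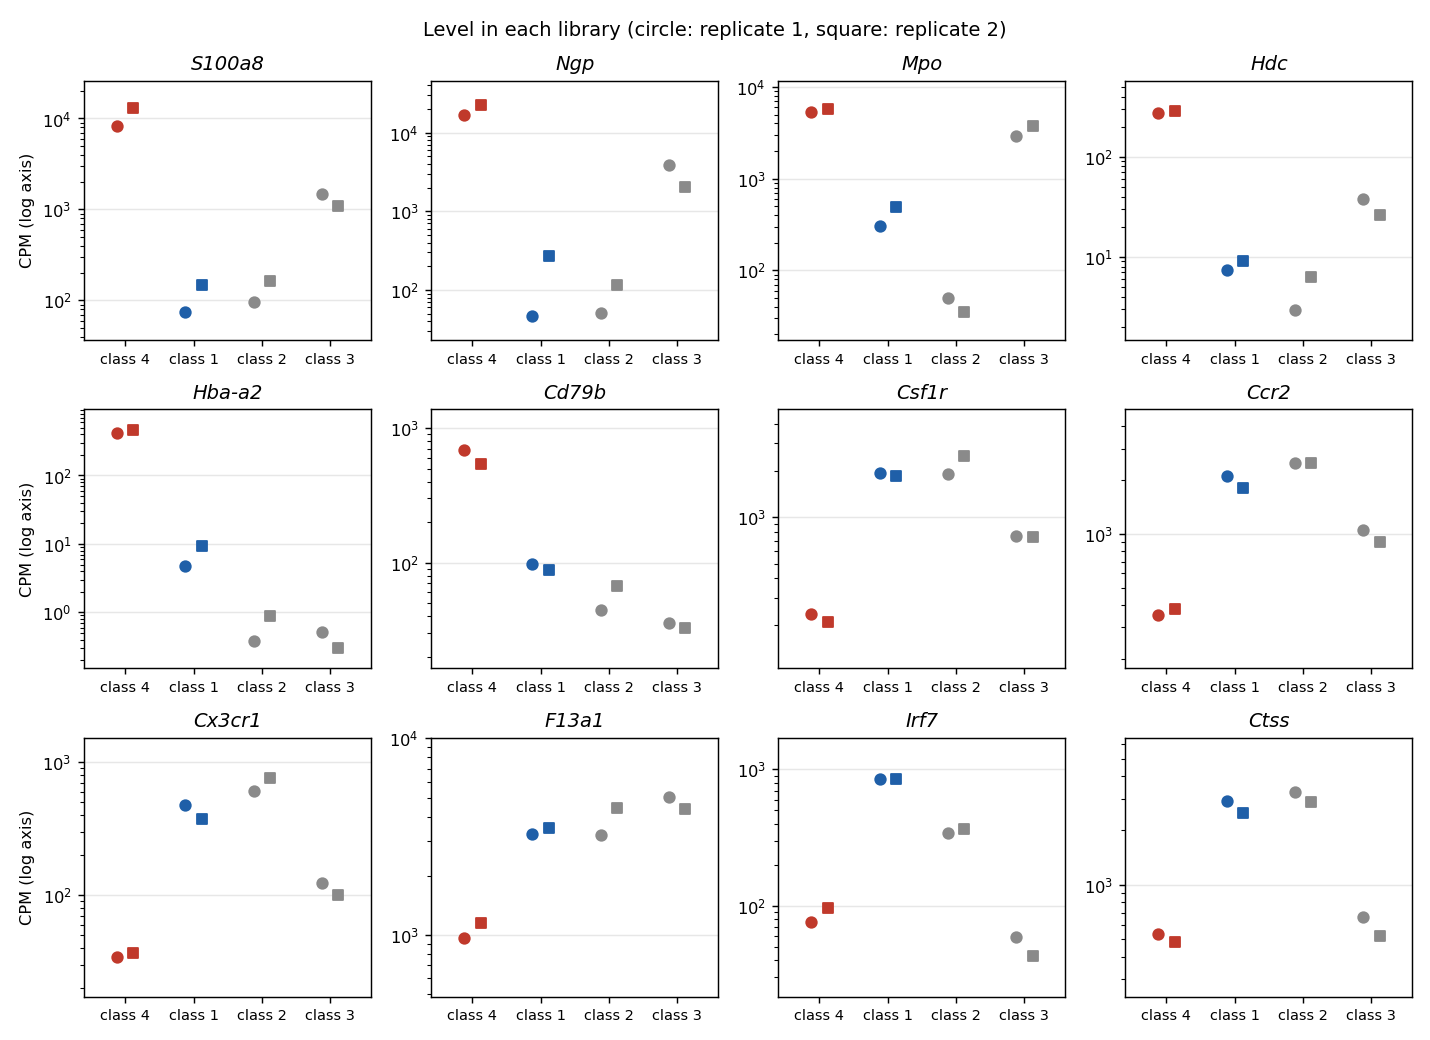
Level of 12 genes in each of the 8 class libraries (CPM, log axis; circles replicate 1, squares replicate 2; class 4 red, class 1 blue, class 2 and class 3 grey). For the first 6 genes both class 4 libraries lie above both class 1 libraries, and for the other 6 genes both lie below.

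Genes of red cell precursors were almost absent from class 1 and plain in class 4. Of 16 tested erythroid genes 15 were higher (93.8%, beside 10.2% of all genes) and 0 lower, with a median log2 fold change of 5.06. Their sum was 4229 and 5335 CPM in class 4 and 81.1 and 162 CPM in class 1. Hba-a2, one of 2 near-identical alpha globin genes whose separate counts are uncertain, had 411 and 460.3 CPM in class 4, against 4.74 and 9.47 CPM in class 1 (log2 fold change 5.94 ± 0.39, adjusted p = 0.000206). The carbonic anhydrase genes Car1 and Car2, which red cells use to carry carbon dioxide, behaved alike. Car1 had 85.2 and 109 CPM in class 4, against 0.398 and 1.09 CPM in class 1 (log2 fold change 7.01 ± 0.54, adjusted p = 0.000234). Car2 had 317 and 447 CPM in class 4, against 13.1 and 26.7 CPM in class 1 (log2 fold change 4.26 ± 0.35, adjusted p = 0.000283). Epor, the erythropoietin receptor, was the 1 tested member that did not pass, at 3.75 and 9.73 CPM in class 4 and 1.31 and 0.981 CPM in class 1. Ermap, a red cell surface protein, had no count in class 1 and was at least 515-fold higher in class 4 against a floor of 3 counts over the class.

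Genes of basophils, mast cells and eosinophils were higher in class 4 for 13 of 17 tested members (76.5%, beside 10.2% of all genes) and lower for 0. Of these Il4, Epx and Ear1 had no count in class 1, so they could only come out higher. The median was 5.08, or 4.9 with the genes at 0 in class 1 taken at their bound. The higher members numbered 8 without class 1 replicate 1 and 7 with all 14 primary libraries. Here the class 4 replicates differed from each other, with sums of 3070.4 and 1509 CPM, against 26.2 and 30.7 CPM in class 1. Prss34, a basophil serine protease, had 1238 and 615 CPM in class 4, against 2.19 and 1.96 CPM in class 1 (log2 fold change 8.80 ± 0.66, adjusted p = 0.00037). Mcpt8, another basophil protease, had 348 and 153 CPM in class 4, against 1.43 and 3.58 CPM in class 1 (log2 fold change 6.63 ± 0.70, adjusted p = 0.000683). Prg2, the major basic protein of eosinophil granules, had 946 and 301 CPM in class 4, against 2.23 and 1.02 CPM in class 1 (log2 fold change 8.59 ± 1.13, adjusted p = 0.00165). Class 4 replicate 1 was the higher one for all 3. Hdc, which makes histamine, had 274 and 286 CPM in class 4, against 7.37 and 9.17 CPM in class 1 (log2 fold change 5.08 ± 0.36, adjusted p = 0.000222) and did not differ in that way between the class 4 replicates. Epx, eosinophil peroxidase, had no count in class 1 and was at least 447-fold higher in class 4, with the same floor.

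B lineage genes had a median of 2.38. They were higher for 16 of 24 tested members (66.7%, beside 10.2% of all genes) and lower for 1. Among them were Cd79a and Cd79b, the signalling chains of the B cell receptor. Cd79a had 868 and 763 CPM in class 4, against 87.9 and 98.9 CPM in class 1 (log2 fold change 3.13 ± 0.31, adjusted p = 0.000572). Cd79b had 687 and 538 CPM in class 4, against 98.1 and 88.1 CPM in class 1 (log2 fold change 2.72 ± 0.22, adjusted p = 0.000283). Vpreb3, a chaperone of the B cell receptor in immature cells, had 331 and 255 CPM in class 4, against 16.9 and 10.4 CPM in class 1 (log2 fold change 4.42 ± 0.41, adjusted p = 0.00043). Bach2, a transcriptional repressor that B cells need, was counted with the myeloid transcription factors and not in this list. It had 134 and 89.9 CPM in class 4, against 7.41 and 9.81 CPM in class 1 (log2 fold change 3.70 ± 0.29, adjusted p = 0.000262). In each of these the classes were separate and class 4 replicate 1 was the higher class 4 library. Ighm, the mu heavy chain, had 2818 and 2018 CPM in class 4 and 948 and 2335 CPM in class 1, so the groups overlapped and it did not pass. The one member that fell was Igj, the joining chain of secreted antibodies, at 17.2 and 0.615 CPM in class 4 and 258 and 127 CPM in class 1 (log2 fold change -4.43 ± 1.33, adjusted p = 0.0446), a call that was lost with either class 1 library left out.

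Progenitor genes were higher for 12 of 21 tested members (57.1%, beside 10.2% of all genes), and for 10 with all 14 primary libraries. Among them Hoxa9 had no count in class 1, so it could only come out higher. The list median was 2.25, and 2.075 to 3.001 with 1 library left out. Sox4, a transcription factor of stem cells and early lymphocytes, had 271 and 186 CPM in class 4, against 11.2 and 15.1 CPM in class 1 (log2 fold change 4.12 ± 0.37, adjusted p = 0.000394). Gata2, a factor of stem cells and of the mast cell and basophil lineages, had 27.1 and 18.7 CPM in class 4, against 0.558 and 1.7 CPM in class 1 (log2 fold change 4.33 ± 0.65, adjusted p = 0.00289). Kit, the receptor for stem cell factor, had 14.5 and 20.7 CPM in class 4, against 1.79 and 3.92 CPM in class 1 (log2 fold change 2.62 ± 0.53, adjusted p = 0.0097), and Cd34, a surface sialomucin of progenitors, had 78.6 and 48.7 CPM in class 4, against 19.1 and 12.7 CPM in class 1 (log2 fold change 2.0 ± 0.44, adjusted p = 0.0142). The groups did not overlap in any of the 4. The calls of Kit and Cd34 were lost without class 1 replicate 1 (adjusted p = 0.0624 and 0.0546), and that of Cd34 also without class 1 replicate 2 (adjusted p = 0.103). Flt3, a receptor of dendritic cell and lymphoid progenitors, was the only tested member that fell, with 21.2 and 16 CPM in class 4, against 36 and 64 CPM in class 1 (log2 fold change -1.43 ± 0.35, adjusted p = 0.022), a call that was lost without class 1 replicate 2 (adjusted p = 0.139) or class 4 replicate 2 (adjusted p = 0.0586).

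The monocyte genes ran the other way. Of 19 tested classical monocyte genes 7 were lower and 3 higher in class 4 (median -0.74), and of 24 nonclassical genes 11 were lower and 2 higher (median -1.08), beside 15% of all genes that were lower. The nonclassical count fell to 5 lower without class 1 replicate 1, and to 7 without class 4 replicate 1 or with total counts, while 1 classical gene was higher without class 1 replicate 2. In the nonclassical list 1 gene was higher with either class 1 library left out. The summed classical list stood at 23172 and 24022 CPM in class 4 and 62063 and 56927 CPM in class 1, and the nonclassical list at 2612 and 3462 CPM in class 4 and 5309 and 5199.5 CPM in class 1. CPM are shares of a library, and the neutrophil list alone took 49066 and 68777 CPM in class 4. The part of the other cell types' transcripts in the lower monocyte levels was not tested.

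Csf1r, the receptor monocytes need to survive, had 236 and 209 CPM in class 4, against 1923 and 1854 CPM in class 1 (log2 fold change -3.09 ± 0.16, adjusted p = 0.000145). Ccr2, the receptor for the monocyte chemoattractant CCL2, had 353 and 381 CPM in class 4, against 2118 and 1812 CPM in class 1 (log2 fold change -2.42 ± 0.14, adjusted p = 0.000152). Cx3cr1, the fractalkine receptor, had 34.4 and 36.4 CPM in class 4, against 474 and 373 CPM in class 1 (log2 fold change -3.58 ± 0.20, adjusted p = 0.000145). By their means these receptor genes were 8.49-fold, 5.35-fold and 12-fold lower in class 4, in the order given, and their replicates within each class lay close together. Ly6c2, F13a1 and Lyz2 fell less than these receptor genes, though Ccr2 is itself a classical marker. Members of the classical list ranged from -3.38 to 2.59 in log2 fold change. Ly6c2, which encodes the Ly6C antigen and has the near-identical copy Ly6c1, had 823 and 859 CPM in class 4, against 2223 and 2339 CPM in class 1 (log2 fold change -1.44 ± 0.13, adjusted p = 0.00041). F13a1, the coagulation factor XIII A chain, had 968 and 1150.1 CPM in class 4, against 3256 and 3494 CPM in class 1 (log2 fold change -1.67 ± 0.18, adjusted p = 0.000775). Lyz2, lysozyme of myeloid cells, had 13510 and 13546 CPM in class 4, against 44680 and 41311 CPM in class 1 (log2 fold change -1.67 ± 0.14, adjusted p = 0.000346). Their means were 2.71-fold, 3.19-fold and 3.18-fold lower in class 4, with no overlap.

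Some monocyte genes did not pass the test, or barely. Chi3l3, a chitinase-like secreted protein, had 3403 and 3658 CPM in class 4, against 3583 and 2781 CPM in class 1, with overlap (log2 fold change 0.15 ± 0.21, adjusted p = 0.65). Nr4a1 was lower in class 4, with 402 and 393 CPM in class 4, against 680.1 and 554 CPM in class 1 (log2 fold change -0.63 ± 0.18, adjusted p = 0.0387), a call that was lost without any 1 of the 4 libraries. Within the classical list the higher members were Cd177, Il1b and Clec4d, and Clec4d, a C-type lectin receptor of neutrophils and monocytes, had 35 and 38.9 CPM in class 4, against 7.05 and 5.25 CPM in class 1 (log2 fold change 2.59 ± 0.31, adjusted p = 0.00118). In the nonclassical list they were Stap1, a call that was lost with either class 1 library left out, and Pglyrp1. Pglyrp1, a peptidoglycan-binding protein of neutrophil granules, had 394 and 585 CPM in class 4, against 36.7 and 30.8 CPM in class 1 (log2 fold change 3.86 ± 0.27, adjusted p = 0.00022).

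Genes of myeloid transcription factors were lower more often than higher. Of 28 tested myeloid factors 16 were lower (57.1%) and 5 higher (17.9%), beside 15% and 10.2% of all genes. The lower ones numbered 9 without class 1 replicate 1, without class 1 replicate 2 or with total counts, and 3 were higher without class 1 replicate 1. Zeb2, which maintains monocyte and macrophage identity, had 129 and 138 CPM in class 4, against 326 and 352 CPM in class 1 (log2 fold change -1.34 ± 0.12, adjusted p = 0.00043). Cebpb, needed by nonclassical monocytes, had 806 and 937 CPM in class 4, against 2282 and 2339.6 CPM in class 1 (log2 fold change -1.41 ± 0.13, adjusted p = 0.000393). Id2, an inhibitor of E proteins, had 185 and 174 CPM in class 4, against 439 and 487 CPM in class 1 (log2 fold change -1.37 ± 0.13, adjusted p = 0.000448). All 3 were between 2.54-fold and 2.65-fold lower by their means, with no overlap. Irf8, which directs progenitors to the monocyte fate, had 712 and 688 CPM in class 4, against 839.7 and 836 CPM in class 1, a gap that was small and did not pass (log2 fold change -0.26 ± 0.12, adjusted p = 0.152). The higher factors were Gfi1, Cebpe, Bach2, Irf4 and Cebpd, the calls of the last pair being lost without class 1 replicate 1 (adjusted p = 0.145 and 0.203) and also without class 4 replicate 1 (Irf4, 0.0635), class 4 replicate 2 (Cebpd, 0.161) or class 1 replicate 2 (Cebpd, 0.116).

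Membrane protein genes of the Ms4a cluster differed in direction within 1 family, with 6 of 10 tested members lower and 3 higher. Ms4a6d had the smallest p of all genes tested, with 21 and 20.9 CPM in class 4, against 226 and 217 CPM in class 1 (log2 fold change -3.40 ± 0.14, adjusted p = 0.000121). Ms4a6b had 88.8 and 91.1 CPM in class 4, against 637 and 626 CPM in class 1 (log2 fold change -2.81 ± 0.14, adjusted p = 0.000141). Ms4a6c had 263 and 249 CPM in class 4, against 992 and 1017 CPM in class 1 (log2 fold change -1.97 ± 0.12, adjusted p = 0.000152). These related genes may share reads, and in all 3 the class 4 libraries lay below those of class 1. The members that were higher are known from other lineages: Ms4a3 from granulocyte progenitors, Ms4a1 (CD20) from B cells and Ms4a2, a chain of the IgE receptor, from mast cells and basophils. Ms4a1 had 229 and 202 CPM in class 4, against 56 and 81.1 CPM in class 1 (log2 fold change 1.65 ± 0.41, adjusted p = 0.0233), and its call was lost with either class 1 library left out.

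**Figure D3:**
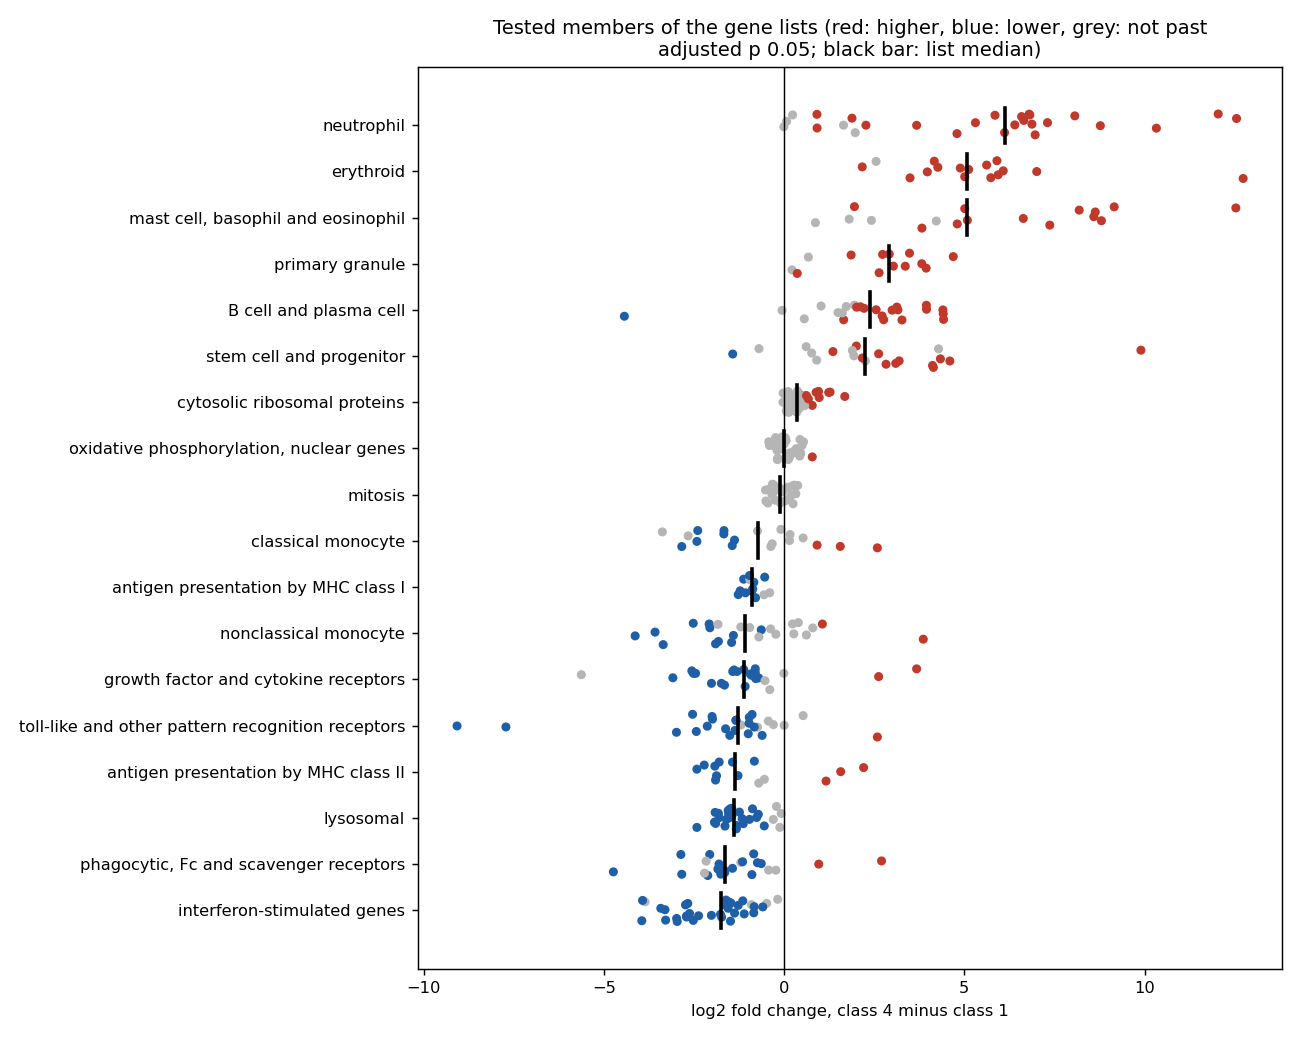
Log2 fold change of class 4 minus class 1 for each tested member of 18 gene lists (points; red higher, blue lower and grey not past the threshold; black bars are list medians). The 6 lists at the top, all of other lineages or early cells, lie mostly right of 0 with medians from 2.25 to 6.11, and the 9 at the bottom lie mostly left of 0 with medians from -0.74 to -1.75.

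Interferon-stimulated genes were lower in class 4 than in class 1 as a group and in no case higher. Of 34 tested members 30 fell (88.2%, beside 15% of all genes) and 0 rose, with a median log2 fold change of -1.75. The list summed to 1379 and 1695 CPM in class 4, against 5578 and 5719 CPM in class 1. Irf7, the factor that amplifies type I interferon production, had 76 and 95.9 CPM in class 4, against 850.1 and 848 CPM in class 1 (log2 fold change -3.31 ± 0.19, adjusted p = 0.000152). Ifit2, which restrains viral translation, had 20.3 and 26.3 CPM in class 4, against 213 and 242 CPM in class 1 (log2 fold change -3.29 ± 0.23, adjusted p = 0.00022). Oas1a, a sensor of double-stranded RNA, had 21.8 and 24.9 CPM in class 4, against 157 and 141 CPM in class 1 (log2 fold change -2.67 ± 0.17, adjusted p = 0.000206). Gbp2, a GTPase that attacks vacuoles of pathogens, had 12.4 and 12.4 CPM in class 4, against 239 and 137 CPM in class 1 (log2 fold change -3.93 ± 0.38, adjusted p = 0.000506). In all 4 every class 4 library lay below both class 1 libraries, and the means were 6.37-fold (Oas1a) to 15.2-fold (Gbp2) lower. Rsad2 (viperin), an antiviral enzyme, did not pass: it had 40.5 and 78.3 CPM in class 4 and 82.2 and 140.4 CPM in class 1, and the groups were separate but uneven. Without class 4 replicate 2 it did pass (log2 fold change -1.46, adjusted p = 0.0254).

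The promoters of both large groups were searched for the element each lineage is known to use. The windows ran from 250 bases before to 50 bases after the start of each gene in RefSeq on GRCm38.p6. The core of the interferon-stimulated response element (GAAA, any 2 bases, GAAA again, on either strand) stood in 12 of the 21 lower interferon-stimulated genes that had a window (57.1%) and in 3.49% of 27025 promoters. The C/EBP-like motif TTGCNNAA, also on either strand and a different sequence from the interferon core, stood in 8 of 21 higher neutrophil genes (38.1%) and in 10.8% of all promoters. The GATA motif AGATAA stood in 2 of 11 higher erythroid genes (18.2%) and in 11.4% of all promoters. Over all members with a window the shares were 58.3% (14 of 24), 32% (8 of 25) and 25% (3 of 12), in that order. Each list was drawn up for its lineage or response, so these shares describe the list and not the class difference. A match describes the letters and says nothing of binding. The upstream 250 bases of 2 called members each are shown for the interferon and the neutrophil list, with the matched letters or their reverse complement in capitals. They were taken by small p among members whose matches all lie upstream of the start. Oas1a is read from the minus strand of chr5:120907526-120907775, Ifit3 from the plus strand of chr19:34583279-34583528, Lcn2 from the minus strand of chr2:32387740-32387989 and S100a9 from the minus strand of chr3:90695722-90695971.
Oas1a: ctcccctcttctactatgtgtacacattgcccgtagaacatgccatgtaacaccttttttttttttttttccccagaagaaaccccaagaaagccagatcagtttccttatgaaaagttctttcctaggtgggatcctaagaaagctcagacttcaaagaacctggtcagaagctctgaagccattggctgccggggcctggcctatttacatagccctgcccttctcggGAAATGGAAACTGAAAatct
Ifit3: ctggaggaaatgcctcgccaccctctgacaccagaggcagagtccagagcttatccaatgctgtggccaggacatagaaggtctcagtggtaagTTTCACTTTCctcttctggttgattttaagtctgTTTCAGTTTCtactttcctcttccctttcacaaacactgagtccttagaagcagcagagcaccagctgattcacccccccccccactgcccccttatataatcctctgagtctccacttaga
Lcn2: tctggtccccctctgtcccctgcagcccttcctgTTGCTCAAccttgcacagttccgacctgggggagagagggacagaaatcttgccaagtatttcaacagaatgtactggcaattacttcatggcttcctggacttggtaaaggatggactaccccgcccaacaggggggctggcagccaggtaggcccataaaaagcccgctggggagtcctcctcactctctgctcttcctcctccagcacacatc
S100a9: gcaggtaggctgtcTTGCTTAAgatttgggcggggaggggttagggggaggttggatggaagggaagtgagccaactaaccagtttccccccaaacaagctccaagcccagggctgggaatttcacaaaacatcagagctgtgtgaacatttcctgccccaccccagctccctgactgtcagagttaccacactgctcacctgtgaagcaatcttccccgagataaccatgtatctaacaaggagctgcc
Oas1a and Ifit3 hold 2 matches each, which overlap in Oas1a, and Lcn2 and S100a9 hold 1 each. Ifit3, of the same antiviral family as Ifit2, had 23.1 and 21.8 CPM in class 4, against 156 and 195 CPM in class 1 (log2 fold change -2.97 ± 0.22, adjusted p = 0.000222).

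Lysosomal and phagocytic genes fell with the monocyte markers. Of 28 tested lysosomal genes 24 were lower (85.7%, beside 15% of all genes) and 0 higher (median -1.39). Ctss, the cathepsin that trims the invariant chain, had 532 and 480.3 CPM in class 4, against 2912 and 2504 CPM in class 1 (log2 fold change -2.42 ± 0.17, adjusted p = 0.00022). Ctsa, a protective protein of lysosomal enzymes, had 391 and 340 CPM in class 4, against 1468 and 1256 CPM in class 1 (log2 fold change -1.90 ± 0.15, adjusted p = 0.000277). Npc2, which moves cholesterol out of lysosomes, had 287 and 318 CPM in class 4, against 833 and 821 CPM in class 1 (log2 fold change -1.45 ± 0.12, adjusted p = 0.000283). The classes were separate for each. Ctsd, cathepsin D, had 890.4 and 762 CPM in class 4, against 1245 and 792 CPM in class 1, so the groups overlapped in 1 library and it did not pass.

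Of 23 phagocytic, Fc and scavenger receptor genes 16 were lower (69.6%, beside 15% of all genes) and 2 higher (median -1.65). Cd68, a lysosomal membrane protein of macrophages, had 192 and 196 CPM in class 4, against 883 and 800.2 CPM in class 1 (log2 fold change -2.12 ± 0.16, adjusted p = 0.000222). Fcgr2b, the inhibitory IgG receptor, had 122 and 134 CPM in class 4, against 475 and 441 CPM in class 1 (log2 fold change -1.84 ± 0.12, adjusted p = 0.000206). The higher count was 1 without class 4 replicate 1 or class 1 replicate 2. C5ar1, the receptor for complement fragment C5a on neutrophils and monocytes, was one of the higher members, with 198 and 210.1 CPM in class 4, against 40.7 and 22.1 CPM in class 1 (log2 fold change 2.7 ± 0.37, adjusted p = 0.00196). Of 6 genes of the phagocyte NADPH oxidase 2 were lower and 1 higher. Cybb, its catalytic membrane subunit, fell, with 651 and 650 CPM in class 4, against 2462 and 2310.3 CPM in class 1 (log2 fold change -1.88 ± 0.16, adjusted p = 0.000308). Its membrane partner Cyba had 983 and 1196 CPM in class 4, against 1516 and 1257 CPM in class 1, with no overlap and no call (log2 fold change -0.35 ± 0.21, adjusted p = 0.264). Rac2, the small GTPase that activates the complex, was higher, with 1328 and 1525 CPM in class 4, against 1016 and 837 CPM in class 1 (log2 fold change 0.62 ± 0.15, adjusted p = 0.0213), without overlap, a call that was lost without class 4 replicate 2 or class 1 replicate 2. By their means Cybb was 3.67-fold lower and Cyba 1.27-fold lower.

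Pattern recognition receptors were lower for 19 of 26 tested members (73.1%, beside 15% of all genes) and higher for 1 (Clec4d), with a median of -1.27. The lower members numbered 9 without class 1 replicate 1, 10 without class 1 replicate 2 or with all 14 primary libraries, and 12 with the 4 libraries alone. Tlr4, the lipopolysaccharide receptor, had 7.16 and 8.54 CPM in class 4, against 37 and 25.8 CPM in class 1 (log2 fold change -2.0 ± 0.25, adjusted p = 0.00129). Clec7a (dectin-1), which binds fungal glucans, had 207 and 204 CPM in class 4, against 937 and 692 CPM in class 1 (log2 fold change -1.99 ± 0.24, adjusted p = 0.00125). Tmem173 (STING), the adaptor for cytosolic DNA sensing, had 71.1 and 67.7 CPM in class 4, against 178 and 173 CPM in class 1 (log2 fold change -1.34 ± 0.14, adjusted p = 0.000586). All were separate between the classes. Tlr3 and Tlr9, sensors of nucleic acids, had no count in class 4 and were at least 48.3-fold and 18.8-fold lower there against a floor of 3 counts over the class; the call of Tlr3 was lost with either class 1 library left out. Cd14, the co-receptor of Tlr4, had 147 and 117 CPM in class 4, against 257 and 184 CPM in class 1, and did not pass (adjusted p = 0.104).

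Cytokine receptors followed, with 18 of 24 tested members lower (75%, beside 15% of all genes) and 2 (Kit and Il1r2) higher. Tnfrsf1b, the second receptor for tumour necrosis factor, had 106 and 129.9 CPM in class 4, against 690.1 and 701 CPM in class 1 (log2 fold change -2.56 ± 0.17, adjusted p = 0.00022). Il10ra, which binds interleukin 10, had 80.8 and 68.3 CPM in class 4, against 282 and 321 CPM in class 1 (log2 fold change -2.02 ± 0.14, adjusted p = 0.00022). Of the inflammatory genes 10 of 25 were lower (40%, beside 15% of all genes) and 2 higher. Il1a and Cxcl1 had no count in class 4 and could only come out lower, and Cxcl3 had none in class 1 and could only come out higher. Without class 1 replicate 1, 6 were lower and 1 higher, and without class 1 replicate 2, 6 were lower and 0 higher. Il1b, interleukin 1 beta, was higher, with 340.3 and 275 CPM in class 4, against 139 and 70.6 CPM in class 1 (log2 fold change 1.56 ± 0.33, adjusted p = 0.0127), a call that was lost without class 1 replicate 2 (adjusted p = 0.0584). Ccl9, a myeloid chemokine, was lower, with 193 and 141 CPM in class 4, against 949 and 759 CPM in class 1 (log2 fold change -2.35 ± 0.25, adjusted p = 0.00064).

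Antigen presentation genes were mostly lower for both pathways. Of 13 MHC class I genes 10 were lower (76.9%, beside 15% of all genes) and 0 higher (median -0.90). H2-T23, the mouse non-classical molecule Qa-1, had 212 and 167 CPM in class 4, against 463 and 452 CPM in class 1 (log2 fold change -1.27 ± 0.14, adjusted p = 0.000778). Tapbp (tapasin), which loads peptide, had 358 and 347 CPM in class 4, against 869 and 774 CPM in class 1 (log2 fold change -1.22 ± 0.14, adjusted p = 0.000892). Of 14 MHC class II genes 9 were lower (64.3%) and 3 higher (21.4%, beside 10.2% of all genes). Without class 1 replicate 1, 6 class I genes and 4 class II genes were lower and 1 class II gene was higher, and without class 1 replicate 2, 5 class II genes were lower. H2-DMb1, a chain of the molecule that exchanges peptides, had 75.3 and 56.5 CPM in class 4, against 306 and 306 CPM in class 1 (log2 fold change -2.22 ± 0.19, adjusted p = 0.000346). H2-DMa, its partner, had 209.8 and 189 CPM in class 4, against 495 and 473 CPM in class 1 (log2 fold change -1.28 ± 0.12, adjusted p = 0.000453). The 3 higher members, H2-Ob, H2-DMb2 and H2-Oa, include both chains of H2-O, the inhibitor of that exchange, which is known from B cells. The call of H2-Oa was lost with either class 1 library or class 4 replicate 1 left out. H2-Ob had 123 and 75 CPM in class 4, against 19.3 and 23.6 CPM in class 1 (log2 fold change 2.20 ± 0.39, adjusted p = 0.00606), and its call was lost without class 1 replicate 1 (adjusted p = 0.0571). The B lineage list was higher in the same class 4 libraries, and its part in this was not tested.

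Stress and early response genes were lower for 13 of 29 tested members (44.8%, beside 15% of all genes). The 3 that were higher (10.3%) were near the 10.2% of all genes. With all 14 primary libraries 8 of 30 were lower and 1 higher. The list median was -0.71, and it ranged from -0.84 to -0.45 with 1 library left out. Hspa1a and Hspa1b, near-identical inducible HSP70 genes whose counts are uncertain one by one, changed most. Hspa1a had 51 and 136 CPM in class 4, against 1670.3 and 2523 CPM in class 1 (log2 fold change -4.49 ± 0.59, adjusted p = 0.00161). Hspa1b had 54.8 and 159.5 CPM in class 4, against 1566 and 2690.2 CPM in class 1 (log2 fold change -4.31 ± 0.64, adjusted p = 0.00277). Atf3, a stress-induced repressor of inflammatory genes, had 358 and 453 CPM in class 4, against 2745 and 2446 CPM in class 1 (log2 fold change -2.68 ± 0.22, adjusted p = 0.000286). Replicate 2 was the higher one in both classes for the heat shock genes, and both class 4 libraries stayed well below both class 1 libraries.

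Mitotic genes did not pass the test, while some genes of replication and of ribosomes were higher in class 4. Of 26 tested mitotic genes 0 passed in either direction by the edgeR test, with 6 at an unadjusted p under 0.05 and 0 called by DESeq2, and the median was -0.12 (0.11 with total counts, where 3 were higher). With no filter on low counts 3 were lower, and without class 4 replicate 1 there were 4. Top2a, which untangles replicated DNA, had 335 and 405 CPM in class 4, against 418 and 459 CPM in class 1 (log2 fold change -0.24 ± 0.18, adjusted p = 0.352). Of 27 replication genes 5 were higher (18.5%, beside 10.2% of all genes) and 0 lower. Among ribosomal protein genes 11 of 42 were higher, led by Rps12, with 88.5 and 121 CPM in class 4, against 31.3 and 34 CPM in class 1 (log2 fold change 1.68 ± 0.29, adjusted p = 0.00518), and of 24 ribosome biogenesis genes 10 were higher. Gar1, a protein of RNA-modifying particles, had 70.3 and 68.6 CPM in class 4, against 25.8 and 17.6 CPM in class 1 (log2 fold change 1.68 ± 0.23, adjusted p = 0.00195). These counts depend on the scaling and on single libraries, and so do those of all genes. Over all genes 2278 of 13686 were higher with total counts, 1913 by DESeq2 and 569 of 15149 with all 14 primary libraries. Ribosomal proteins called higher numbered 29, 18 and 6 in that order, replication genes 11, 7 and 3, and ribosome biogenesis genes 13, 11 and 8. With 1 library left out the median log2 fold change was 0.26 to 0.46 for ribosomal proteins. It was 0.31 to 0.37 for replication genes and 0.39 to 0.59 for ribosome biogenesis genes.

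Set beside the other classes, the class 4 libraries were the lowest of the 8 for Csf1r, Ccr2 and Cx3cr1 and the highest for S100a8 and Hba-a2. Class 4 shares its libraries with the comparisons against class 2 and class 3, so the values are given side by side only. Csf1r had 236 and 209 CPM in class 4, against 1896 and 2487 CPM in class 2 and 759 and 742 CPM in class 3 (edgeR adjusted p = 1.43e-05 and 0.000396). S100a8 had 8351 and 12893 CPM in class 4, against 95.5 and 164 CPM in class 2 and 1482 and 1088 CPM in class 3 (adjusted p = 5.73e-05 and 0.00179). Hba-a2 had 411 and 460.3 CPM in class 4, against 0.378 and 0.876 CPM in class 2 and 0.518 and 0.304 CPM in class 3 (adjusted p = 1.43e-05 and 0.000123). These separated class 4 from each other class.

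Other genes did not pass the test against class 3. Mpo had 5349.8 and 5799.7 CPM in class 4, against 2949 and 3754 CPM in class 3 (adjusted p = 0.0681). Prss34 had 1238 and 615 CPM in class 4, against 547 and 219.6 CPM in class 3 (adjusted p = 0.0798). Gbp2 had 12.4 and 12.4 CPM in class 4, against 26.2 and 15.2 CPM in class 3 (adjusted p = 0.152), while class 2 had 82.4 and 54 CPM. Cd34 had 78.6 and 48.7 CPM in class 4, against 51.6 and 61.9 CPM in class 3 (adjusted p = 0.804). Over all genes 13% were higher and 15.7% lower in class 4 than in class 3, and 19.5% and 21.4% than in class 2. Of the 27 replication genes 0 were higher and 7 lower in class 4 than in class 3. Against class 2, 27 were higher and 0 lower. Some lists that were mostly lower than in class 1 were not so against class 3. Of 34 interferon-stimulated genes 18 were higher and 4 lower in class 4 than in class 3, and of 14 MHC class II genes 9 and 1. The nonclassical list gave 10 and 3, the classical list 5 and 5 and the lysosomal list 1 and 20. MHC class II genes summed to 6985 and 6223 CPM in class 4, 20868 and 19865 CPM in class 1 and 1699 and 1162 CPM in class 3.

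The sorted subsets share no library with these classes, and on a scale common to the 14 primary libraries they show where other lineages' genes appear. The neutrophil list summed to 48330 and 67150 CPM in class 4, against 1771 and 2407 CPM in class 1 and 878 to 6514 CPM in the 6 subset libraries. The erythroid list summed to 4166 and 5209 CPM in class 4, against 80.1 and 157 CPM in class 1 and 30.9 to 569.6 CPM in the subsets. The basophil, mast cell and eosinophil list was different: it summed to 3024 and 1473 CPM in class 4, but to 3799 and 8234 CPM in the intermediate and 1761 and 6199 CPM in the nonclassical libraries. The B lineage list, at 7547 and 5666 CPM in class 4, reached 9425 and 4962 CPM in the nonclassical libraries. The primary granule list summed to 10300 and 11570 CPM in class 4, against 7237 and 13220 CPM in the intermediate libraries. The progenitor list summed to 976 and 803 CPM in class 4, against 818 and 1049 CPM in the intermediate libraries. The class 4 sums of basophil, B lineage, primary granule and progenitor genes lay within the range of the sorted subsets. Those of neutrophil and erythroid genes lay above it.

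In the sorted subsets, fitted apart from the classes, nonclassical minus classical monocytes gave other directions for several lists, beside 2.91% of 13944 genes higher and 2.9% lower. The nonclassical list was higher for 19 of 24 tested members, with a median log2 fold change of 3.26. The mitotic list was lower for 20 of 26, with a median of -2.59, and the interferon-stimulated list of 34 tested members had a median of 0.03.

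**Figure D4:**
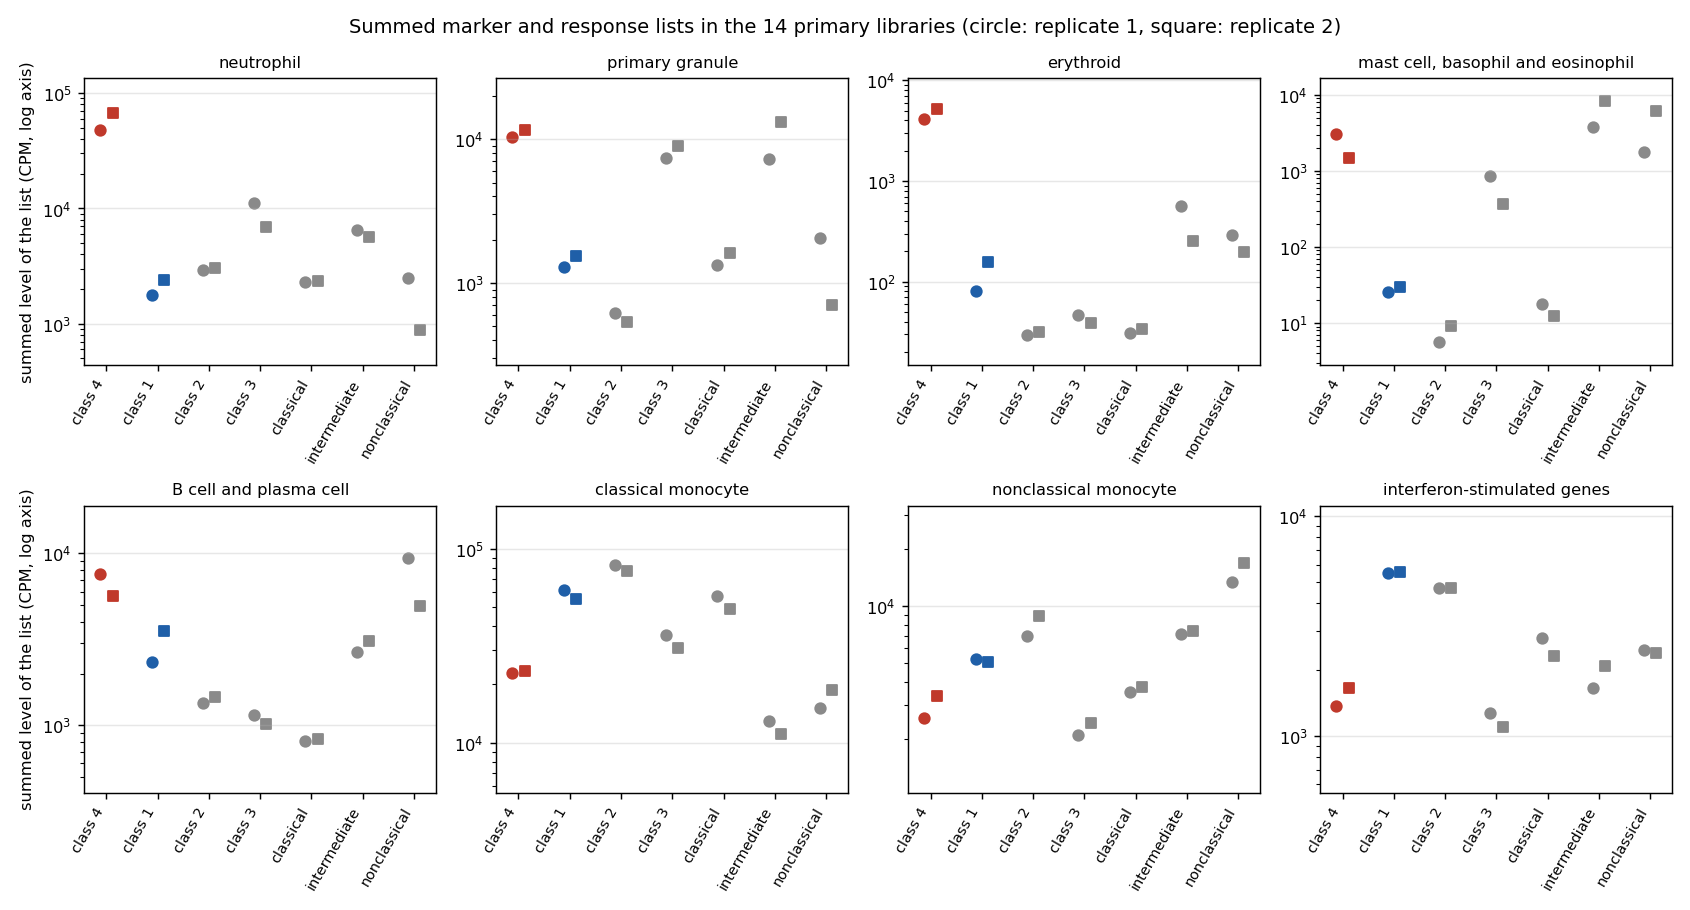
Summed CPM (log axis, TMM-scaled over 14 libraries) of 8 gene lists in each primary library (circles replicate 1, squares replicate 2; class 4 red, class 1 blue, others grey). The neutrophil and erythroid sums of class 4, 48330 and 67150 and 4166 and 5209 CPM, lie above all other libraries, while the basophil and B lineage sums overlap those of the intermediate or nonclassical libraries.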

How the data were processed

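The authors deposited raw read counts per gene, made with STAR 2.7.3a, HTSeq 0.6.0 and the build mm9 per the submitters' processing notes. The annotation, strand setting and filters are not given in the sources used here, so genes that overlap or lie antisense cannot be told apart. The table holds 37620 genes and no mitochondrial counts. Of the gene IDs, 32897 matched names in GENCODE M21, a later annotation used for names and chromosomes only. The table has 1 column that no labelled sample matches, which stayed out.

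Counts were analysed in R 4.3.3 with edgeR 4.0.16 (quasi-likelihood F test, 2-sided, TMM factors, filterByExpr with a minimum count of 10) and limma 3.58.1, with Benjamini-Hochberg adjustment over all genes tested and a threshold of 0.05. The 8 class libraries were fitted together (4 residual degrees of freedom, biological coefficient of variation 0.377) and class 4 was contrasted with class 1. The 6 subset libraries had their own fit. CPM are TMM-scaled, log2 CPM used a prior count of 2, and the standard error is the log2 fold change over the square root of F. Precision is limited by 2 libraries a class. Figures were drawn with matplotlib 3.10.9 in Python 3.11.15. The fit was tested on simulated counts.

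The comparison, the 37 gene lists and the rules were chosen with earlier results of these data known. The rule named Ly6c2, Ccr2, Cx3cr1, Nr4a1, Csf1r, F13a1, Mpo, Kit and Cd34, the 12 genes of largest change in each direction (mean log2 CPM of at least 3, no overlap, no predicted genes or immunoglobulin segments), and per list up to 3 called members a direction with the smallest p and the highest member not called. Some were left out for length, and some are not reported here. Genes named to make up a count of 5 or fewer, because a class had no count, or for a promoter match were chosen after their values were seen. List members Azu1, Ahsp, Hmgcs1, Noc2l, Ms4a4a and Kcnq1ot1 were not analysed here. Alternatives were DESeq2 1.42.0 and its size factors, total counts, other filters, other sets of libraries, the replicate number as a block and leaving out each library.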

Additional observations from a re-analysis of the deposited data

How the results depend on the processing

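Of 12 alternatives, none reversed any of the 117 called genes among the 128 followed. The called genes (3442, of which 1394 higher and 2048 lower) numbered 2143 (868 higher, 1275 lower) with the 4 libraries of both classes alone and 1722 (569 higher, 1153 lower) with all 14 primary libraries. With total counts in place of TMM factors 2278 were higher. Leaving out 1 library at a time gave 1546 to 4305 called genes, 502 to 1714 higher and 1044 to 2591 lower. The cause was not tested, beyond the fewer libraries or other group spreads that these fits hold by construction. With 1 library left in a class, that library was assumed to vary like the other groups. DESeq2 size factors, DESeq2 itself (4313 called), no filter (4467), a minimum count of 50 and the replicate block stayed within 1.5 times.

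The labels do not say whether the replicate numbers pair the samples. The deviations of class 4 and class 1 replicates correlated at 0.0019 over genes (-0.011 to 0.073 over all 6 pairs of classes). A correlation over all genes cannot exclude a pairing that moves few genes. With the number as a block 3230 genes were called, 1271 higher and 1959 lower, and of the genes followed only Cd14 changed its call (adjusted p = 0.0364).

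Of 128 genes followed through 12 alternatives (1536 values), 1460 kept direction and call, 61 lost the call, 7 gained it and 8 changed sign. The sign changes were all of genes not called: Csf3r at 0.0095 with DESeq2 size factors and with DESeq2, 0.22 with total counts, 0.018 with a minimum count of 50 and -0.15 to 0.12 with 1 library left out, and, with 1 library left out, Ctsd at -0.60 to 0.066 and Chi3l3 at -0.026 to 0.35 (log2 fold changes; the cause was not tested). No member of the neutrophil, primary granule or erythroid lists was lower, and none of the interferon-stimulated, lysosomal or MHC class I lists higher, in any of the 12 alternatives (DESeq2 included), nor at an unadjusted p under 0.05 with the settings of the report. With total counts 29 ribosomal protein genes and 3 mitotic genes were higher, against 11 and 0 with TMM factors. The erythroid list had 10 to 15 higher members and the lysosomal list 20 to 24 lower ones.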

Other observations

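Of 19 tested genes of tissue macrophages 5 were higher (26.3%) and 2 lower (10.5%) in class 4, beside 10.2% and 15% of all genes. Lyve1, among the higher ones, had no count in class 1 and could only come out higher. With either class 1 library left out 0 were higher and 2 lower, DESeq2 gave 4 and 4, no filter on low counts 5 and 5, all 14 primary libraries 2 and 2, and leaving out class 4 replicate 1 gave 4 and 6. Emr1, the F4/80 antigen, had 44.2 and 55.1 CPM in class 4, against 306 and 278 CPM in class 1 (log2 fold change -2.56 ± 0.22, adjusted p = 0.000329), and Axl, a receptor for dying cells, had 129 and 115 CPM in class 4, against 407 and 365 CPM in class 1 (log2 fold change -1.66 ± 0.26, adjusted p = 0.00335). Both class 4 libraries lay below both class 1 libraries for these. Slc40a1, the iron exporter of macrophages that recycle red cells, had 336 and 277 CPM in class 4, against 114 and 108 CPM in class 1 (log2 fold change 1.46 ± 0.31, adjusted p = 0.0122), and Cd5l, a protein such macrophages secrete, had 62.6 and 37.1 CPM in class 4, against 6.13 and 6.3 CPM in class 1 (log2 fold change 3.0 ± 0.60, adjusted p = 0.00928). These 2 were higher in class 4, and their calls were lost with either class 1 library left out.

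Of 23 tested T and NK cell genes 3 were higher and 0 lower by the edgeR test, 4 and 2 at an unadjusted p under 0.05 and 4 and 1 by DESeq2. Without class 4 replicate 1 there were 2 lower, and without class 4 replicate 2 there were 5 higher. The share that was higher is near the 10.2% of all genes. The 3 were Cd2, Il7r and Nkg7, which other lineages also express. Cd2, an adhesion molecule of lymphocytes, had 80.5 and 70.3 CPM in class 4, against 17 and 15.4 CPM in class 1 (log2 fold change 2.22 ± 0.31, adjusted p = 0.00227). Of 12 megakaryocyte genes 3 were higher (1 without class 1 replicate 2 and 5 without class 4 replicate 1), among them Itga2b, an integrin chain of platelets and early progenitors, with 16.8 and 19.8 CPM in class 4 and 0 and 0.377 CPM in class 1. Pf4, a platelet chemokine, had 7.91 and 9.56 CPM in class 4 and 17.8 and 12.6 CPM in class 1 and did not pass.

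Migration genes were lower for 13 (46.4%) and higher for 6 (21.4%) of 28 tested members, beside 15% and 10.2% of all genes. Itgb7, an integrin chain that binds mucosal vessels, had 271 and 256 CPM in class 4, against 1089 and 949 CPM in class 1 (log2 fold change -1.95 ± 0.15, adjusted p = 0.000228). Itgal, the alpha chain of LFA-1, had 68.2 and 65.6 CPM in class 4, against 290.4 and 275 CPM in class 1 (log2 fold change -2.08 ± 0.22, adjusted p = 0.000644). Cd63, a granule membrane protein, had 329.8 and 369 CPM in class 4, against 21.9 and 35.7 CPM in class 1 (log2 fold change 3.6 ± 0.32, adjusted p = 0.000375). The first pair lay lower and the last higher in both class 4 libraries. In metabolism, Lpl (lipoprotein lipase) had 41.3 and 51.9 CPM in class 4, against 281 and 359 CPM in class 1 (log2 fold change -2.78 ± 0.31, adjusted p = 0.00078), Srebf2, the activator of cholesterol synthesis, had 38.2 and 33.1 CPM in class 4, against 94.9 and 117 CPM in class 1 (log2 fold change -1.57 ± 0.22, adjusted p = 0.00223), and Slc2a3, a glucose transporter, had 147 and 214 CPM in class 4, against 9.84 and 9.58 CPM in class 1 (log2 fold change 4.21 ± 0.47, adjusted p = 0.000848). Of 32 nuclear genes of oxidative phosphorylation 1 was higher (Cox7c, with 96.9 and 107 CPM in class 4 and 57.3 and 61.4 CPM in class 1, a call that was lost with either class 1 library or class 4 replicate 2 left out) and 0 were lower, with 6 and 3 at an unadjusted p under 0.05. S100a4, unlike S100a8 and S100a9 of its family, was lower in class 4, with 51.3 and 60.3 CPM in class 4, against 226 and 241 CPM in class 1 (log2 fold change -2.06 ± 0.16, adjusted p = 0.000237). Malat1, a nuclear noncoding RNA, had 6535 and 6799 CPM in class 4, against 1696 and 2149 CPM in class 1 (log2 fold change 1.79 ± 0.46, adjusted p = 0.0247), a call that was lost with either class 1 library left out.

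Further lists were counted by the edgeR test, beside 10.2% of all genes higher and 15% lower. In several the share was near or below that of all genes, and in most the count moved by over 1.5 times when 1 class 1 library was left out. Dendritic cell genes were higher for 2 and lower for 5 of 21 tested members, with a median of -0.28, and 2 were lower with either class 1 library left out. Genes of lipid uptake and efflux were higher for 1 and lower for 9 of 18, and glycolytic genes higher for 3 and lower for 5 of 18 (0 lower with total counts or without class 1 replicate 1). Cholesterol synthesis genes were lower for 4 of 21 and higher for 0, with 8 and 0 at an unadjusted p under 0.05 and 5 and 0 by DESeq2. Stromal and endothelial genes were higher for 1 of 11 and lower for 0, with 3 and 0 unadjusted and 2 and 0 by DESeq2. Nuclear noncoding RNAs were higher for 3 of 6 and lower for 0, with 3 and 1 unadjusted and also by DESeq2.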
